A study of Rattus norvegicus with 6 samples.

Results

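Neutrophils in single-cell suspensions of the rat hippocampus are described here. They were taken as cell barcodes with at least 500 unique molecular identifiers (UMIs, 1 per captured transcript) and with mitochondrial genes giving no more than 20% of them. S100a8 and S100a9, which encode the calcium-binding pair calprotectin, had to give at least 10 of every 1000 UMIs, the complement genes C1qa, C1qb and C1qc at most 3, and the T cell gene Cd3e none. The rule took 169 of 48707 barcodes that passed the limits on UMIs and mitochondrial genes, out of 58078 deposited. The labels name 3 irradiated samples, from male rats whose hippocampus was taken 2 months after a whole-brain dose of 20 Gy, and 3 control samples from male rats. The sources used here give neither strain nor age, nor whether a sample pools animals. The tissue was digested to single cells, red cells were lysed, dead cells were removed on magnetic beads, and no sort was named. Barcodes carry a library number from 1 to 6 that no source used here ties to a labelled sample. Irradiated and control rats were therefore not compared, libraries are given with no group, and neither p-values nor standard errors were computed.

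Neutrophils are short-lived granulocytes that leave the bone marrow ready-made and circulate in blood. They carry antimicrobial proteins in granules that are filled in sequence during maturation, so transcripts of primary granule proteins are made early and those of gelatinase granules late. Few are found in healthy brain tissue, and cells in blood vessels or the meninges can enter a dissociated suspension. Fewer cells, poorer capture and less RNA per cell cannot be told apart in a share of barcodes.

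The 169 neutrophils were 0.347% of the kept barcodes (exact binomial 95% interval 0.297 to 0.403%; this and every interval below covers counting error only). From library 1 to 6 there were 11, 17, 84, 35, 17 and 5 of them, or 0.188, 0.185, 0.794, 0.400, 0.197 and 0.0874% of the library's kept barcodes. Library 3 held 49.7% of all neutrophils, and its interval of 0.634 to 0.983% did not overlap that of any other library. Without library 3 the share was 0.223%. Neutrophils were shallow, with a median of 1235 UMIs and 590 genes, against 5188.5 UMIs and 1954 genes in the other kept barcodes. Their median mitochondrial share was 3.46%, against 7.61% in the other barcodes. With every barcode thinned to 500 UMIs, the median was 296 genes in neutrophils and 336 in the other barcodes. Of all deposited barcodes, 410 sequences occurred in more than 1 library. That held for 2 neutrophil sequences, and 0 were shared between neutrophils.

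**Figure D1:**
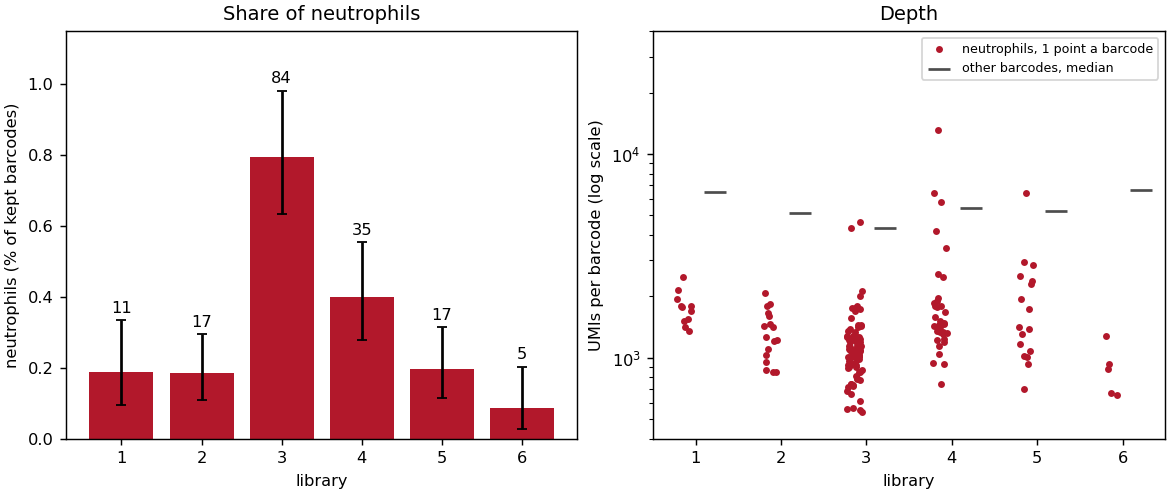
Neutrophils by library. Left, neutrophils as a percent of kept barcodes, with exact 95% intervals and the number of neutrophils above each bar; right, UMIs per barcode on a log scale, with each neutrophil as a point and the median of the other barcodes as a line. Library 3 has the highest share, 0.794%, and in each library most neutrophils lie below the median of the other barcodes.

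The S100 values that chose the cells ran from 11.3 to 349.5 per 1000 UMIs, with a median of 75.3. S100a9 was at 98230, 81740, 79000, 72580, 56850 and 46890 CPM (UMIs scaled to a fixed total, counts summed over cells) in neutrophils of libraries 1 to 6, against 1.75 to 33.9 CPM in the other barcodes. S100a8 was at 29160, 27330, 24240, 21200, 14150 and 8607 CPM in neutrophils, against 0.727 to 10.2 CPM in the other barcodes. The barcodes nearest the threshold held 11.3, 11.5 and 12.1 per 1000 inside it and 9.86, 9.05 and 8.42 outside it. Of the neutrophils, 125 had at least 40 per 1000 and 16 had under 20. A further 27 barcodes passed the S100 threshold and exceeded the C1q limit, with a median of 3296 UMIs, and 60 of the 169 neutrophils had no C1q UMI. Among 9222 barcodes over the mitochondrial limit, 2 met the rest of the rule.

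The label was compared with 8 genes that the rule had not used, namely Retnlg, G0s2, Csf3r, Cxcr2, Il1r2, Trem1, Mmp8 and Mmp9. Retnlg and G0s2 had been given as markers of these cells beforehand, so they are no independent check. At least 1 was found in 167 of 169 neutrophils (98.8%), against 30.9% of the other barcodes, and at least 3 in 104 neutrophils (61.5%), against 0.101%. Thinned to 500 UMIs, at least 1 was found in 94.7% of neutrophils and 4.27% of the other barcodes, and at least 3 in 21.9% of neutrophils and 0.0144% of the other barcodes. G0s2, an inhibitor of fat breakdown that mature neutrophils express strongly, was found in 160 neutrophils and in 19.3% of the other barcodes. Its level was 6326, 14200, 15970, 10810, 8690 and 21520 CPM in neutrophils of libraries 1 to 6, against 26.7 to 91.1 CPM in the other barcodes, and no library overlapped. Retnlg, a resistin-like secreted protein, was found in 45 neutrophils only (26.6%), and its distribution is described further on. The counts over the 8 genes include Retnlg and G0s2. Of the remaining genes, Cxcr2 was found in 56.2% of neutrophils and 2.17% of the other barcodes, and Csf3r in 31.4% and 10.3%. In the same order Il1r2 was found in 36.1% and 0.371%, Trem1 in 35.5% and 0.185%, Mmp8 in 19.5% and 0.0185%, and Mmp9 in 5.92% and 0.0762%. Each of these shares was higher in neutrophils, though apart from G0s2 and Cxcr2 each of the 8 genes had no UMI in most neutrophils.

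Ratios below set neutrophils over the other kept barcodes, as the log2 of summed CPM with 10 CPM added to both sides. A gene is called higher or lower where this ratio is at least 1 or at most -1, among genes with at least 20 CPM on either side. The barcodes were chosen on these same libraries, so the ratios describe the cells and test nothing. By that rule 762 of 7137 genes (10.7%) were higher in neutrophils and 1832 (25.7%) lower, with a median over all genes of -0.50. Of these, 585 genes were under 20 CPM in the other barcodes and passed only through the neutrophils, so they could not come out lower. Of 20 measured genes of a mature neutrophil list, 17 were higher in neutrophils and 2 lower, and 11 of the 20 had passed only through the neutrophils.

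The 20 genes with a symbol that had the highest ratios, among those found in at least 25% of neutrophils, included granule proteins, receptors and calcium-binding proteins. Lrg1, a secreted glycoprotein stored in granules, led them and was found in 89.9% of neutrophils. It was at 4783, 3627, 2337, 1596, 2474 and 3171 CPM in neutrophils of libraries 1 to 6, against 0.526 to 2.57 CPM in the other barcodes (log2 ratio 7.78). Anxa1, an annexin that limits neutrophil recruitment, was at 2608 CPM in neutrophils and 10.4 CPM in the other barcodes (7.01). S100a11, another calcium-binding protein, varied little, from 1810 to 2520 CPM over the neutrophils of the 6 libraries, against 2.55 to 82.5 CPM in the other barcodes. Tspo, a protein of the outer mitochondrial membrane whose ligands are used as tracers of brain inflammation, was found in 97.6% of neutrophils. It was at 5106 CPM in neutrophils (1812 to 7456 over libraries), against 127.5 CPM in the other barcodes and 139.1 CPM in microglia. Rara, the retinoic acid receptor alpha that takes part in granulocyte maturation, was at 706.6 CPM in neutrophils and 3.24 CPM in the other barcodes. Scimp, an adaptor of immune receptors, was at 5.26, and at 4.56 without library 3, and Prok2, a secreted attractant, was at 5.91, and at 4.78 without library 3. The other genes of the 20 had ratios of 5.12 to 7.70, and all but Retnlg were higher in neutrophils in 6 of 6 libraries.

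**Figure D2:**
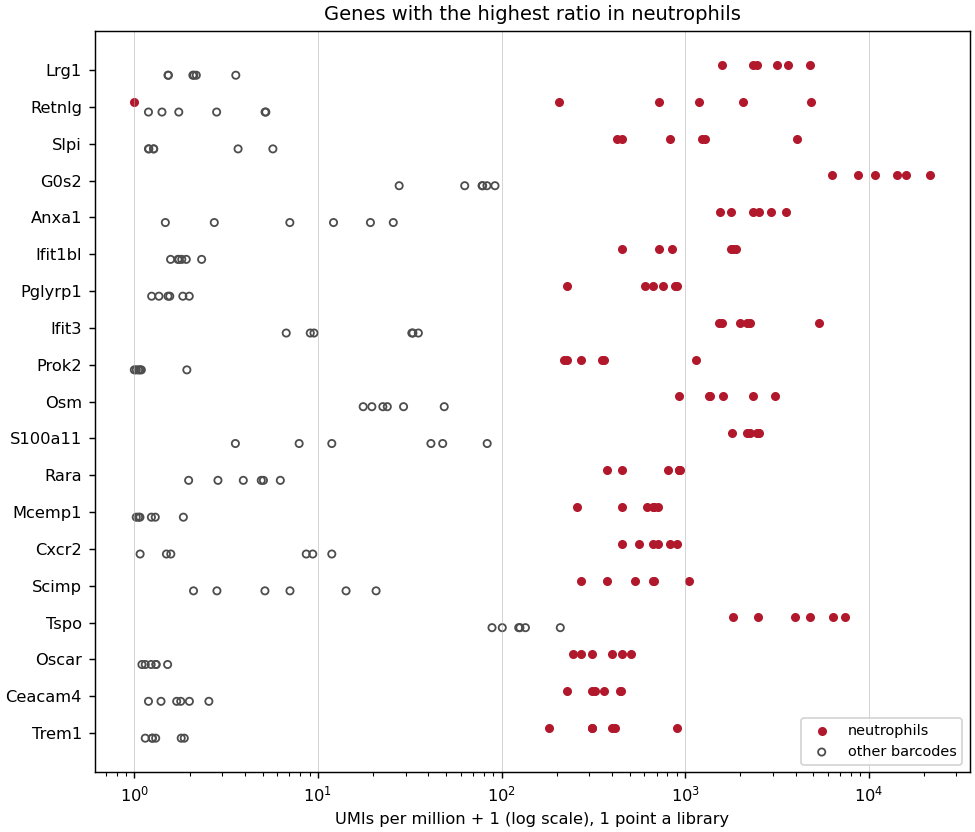
Genes among the 20 with the highest ratios in neutrophils. The horizontal axis gives CPM plus 1 on a log scale, with filled points for neutrophils and open points for the other barcodes, 1 point a library. The 2 sides do not overlap for any gene drawn except Retnlg, which had 0 UMIs in the 5 neutrophils of library 6.

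Granule genes were detected unevenly. Of 12 measured primary granule genes, 10 had 0 UMIs, where 3 of the neutrophils' 256147 UMIs would be 11.7 CPM. Elane, neutrophil elastase, had 1 UMI in each of 10 cells (39.0 CPM in neutrophils, 0.0034 CPM in the other barcodes), and Mpo, myeloperoxidase, 1 UMI in all. Of 13 secondary granule genes 6 passed the limit on CPM, 5 of them only through the neutrophils, which fixes their direction, and 4 had 0 UMIs, among them Ltf (lactoferrin), Lcn2 (an iron-siderophore binder) and Ngp. The 6 include Fcnb and Hp, described below, and the median ratio of the list was 3.92 over those 6 and 1.32 with no limit on CPM. Chi3l1, a chitinase-like protein, was found in 80.5% of neutrophils and was at 1697, 2344, 1851, 1068, 1418 and 1359 CPM in libraries 1 to 6, against 54.7 to 233.3 CPM in the other barcodes. Pglyrp1, which binds bacterial peptidoglycan, was at 776.9 CPM in neutrophils and 0.605 CPM in the other barcodes. Mmp8, neutrophil collagenase, was found in 33 neutrophils (218.6 CPM, against 0.0442 CPM in the other barcodes). Camp, the antimicrobial cathelicidin, was at 51.4, 221.2, 101.2, 656.4, 120.7 and 0 CPM in neutrophils of libraries 1 to 6, highest in library 4. Its ratio of 4.71 was 3.51 without that library.

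Of 14 genes of gelatinase and secretory granules 8 passed the limit on CPM, 7 of them only through the neutrophils, and 4 had 0 UMIs. Their median ratio was 3.02 over those 8 and 1.70 with no limit. Slpi, a secreted inhibitor of elastase, was at 822.9, 1283, 4067, 424.8, 1237 and 453.0 CPM in neutrophils of libraries 1 to 6, against 0.200 to 4.68 CPM in the other barcodes. It was highest in library 3, and its ratio of 7.49 was 6.17 without that library. Mmp9, gelatinase B, was found in 10 neutrophils (58.6 CPM, against 0.153 CPM in the other barcodes). Lyz2, lysozyme, was found in all 169 and was at 9799 CPM in neutrophils and 3289 CPM in the other barcodes.

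**Figure D3:**
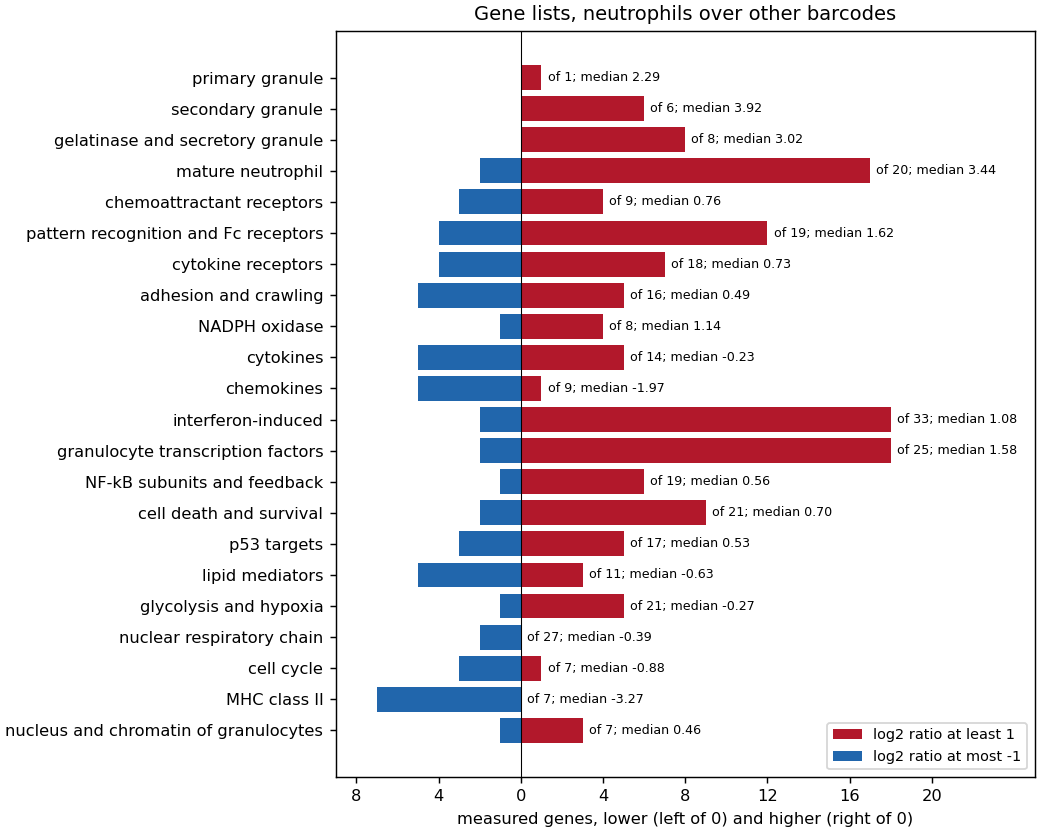
Members of 22 gene lists in neutrophils over the other barcodes. Bars count the measured genes with a log2 ratio of at least 1 (right) or at most -1 (left), with the number measured and the median ratio beside each. Granule, mature neutrophil, interferon-induced and transcription factor lists lie mostly to the right, and MHC class II lies wholly to the left.

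Retnlg marked a minority of neutrophils, which also held most UMIs of Camp (64 of 71) and Mmp8 (41 of 56). Retnlg was found in 1, 7, 19, 13, 5 and 0 neutrophils of libraries 1 to 6, and it reached 36.0 per 1000 UMIs in a cell. Its level was 205.7, 1194, 2064, 4827, 724.2 and 0 CPM in neutrophils, against 0.194 to 4.20 CPM in the other barcodes. The ratio of 7.70 was 6.91 without library 4. Cells were split by the presence of a Retnlg UMI after these values had been seen, so the split is a description. The 45 cells with Retnlg had a median of 1470 UMIs, and the 124 without it 1205.5.

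Camp was found in 42.2% of cells with Retnlg (interval 27.7 to 57.9%) and 5.65% of those without (2.30 to 11.3%). Mmp8 was found in 18 of the 45 cells with Retnlg (25.7 to 55.7%) and 12.1% of those without (6.93 to 19.2%). Mmp9 was found in 8 of the 45 cells with Retnlg and 2 of the 124 without. Thinned to 500 UMIs, Camp was found in 20.0% of cells with Retnlg and 3.23% of those without, and Mmp8 in 17.8% and 4.84% in the same order. Within library 4, Camp was found in 10 of 13 cells with Retnlg and 2 of 22 without. Within library 3 it was found in 4 of 19 cells with Retnlg and 2 of 65 without, and within library 2 in 2 of 7 with Retnlg and 2 of 10 without. S100a9 was at 118900 CPM in cells with Retnlg and 55550 CPM in those without, and S100a8 at 35100 and 16610 CPM in the same order. G0s2 was found in 93.3% of cells with Retnlg and 95.2% of those without, at 8047 and 14770 CPM in the same order. Its CPM was lower in the cells with Retnlg in libraries 2 to 5 and higher in library 1, which had 1 such cell. Shares for the interferon-induced gene Ifit3 (75.6% with Retnlg, 73.4% without) and for Il1b (91.1% and 91.9%) lay within each other's intervals. Their levels were lower with Retnlg, at 1587 CPM against 2515 CPM without it for Ifit3, and 2924 against 4537 CPM for Il1b. Ifit1bl, another interferon-induced gene, was at 1637 CPM with Retnlg and 1215 CPM without. These 3 levels were not split by library. Msrb1, a reductase of oxidized methionine, was found in 84.4% of cells with Retnlg and 54.0% of those without.

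**Figure D4:**
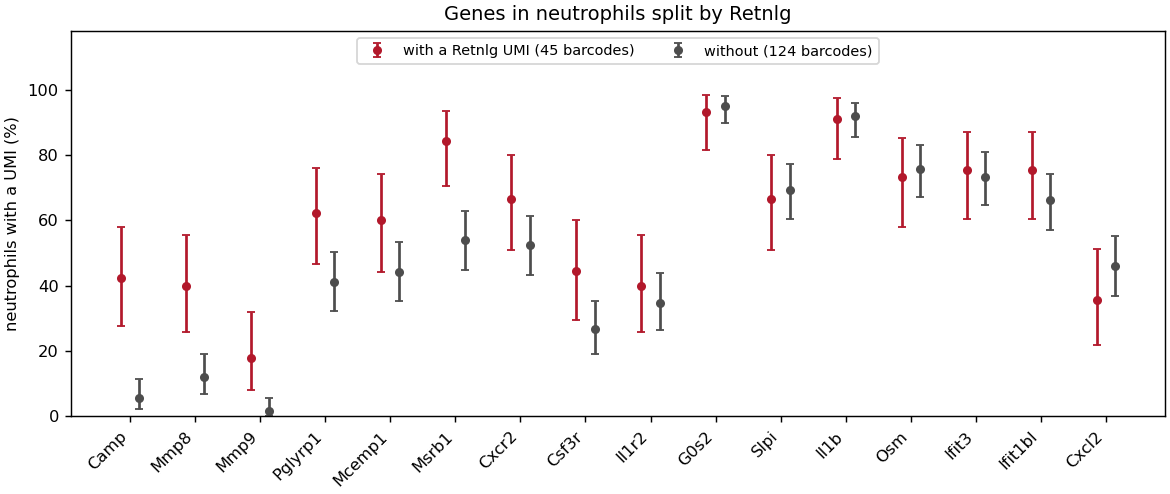
Genes in neutrophils with and without a Retnlg UMI. The vertical axis gives the percent of cells with at least 1 UMI of the gene, with exact 95% intervals. Intervals are apart for Camp, Mmp8, Mmp9 and Msrb1, and overlap for the other genes drawn.

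Receptor genes went both ways. Of 9 measured chemoattractant receptor genes 4 were higher and 3 lower in neutrophils. Of 18 measured genes of a cytokine receptor list 7 were higher and 4 lower, and the 7 include Il1rn, a secreted antagonist and no receptor. Of 19 identifiers of pattern recognition and Fc receptor genes (Fcgr2a has 2) 12 were higher and 4 lower. The shares over all genes were 10.7% and 25.7%. All 4 higher chemoattractant receptors passed the limit on CPM only through the neutrophils, which fixes their direction. So did 3 of the 7 higher genes of the cytokine receptor list, Il1rn among them, and 4 of the 12 higher pattern recognition and Fc receptors. Cxcr2, the receptor for the neutrophil-attracting chemokines, was at 822.9, 707.7, 556.4, 450.5, 663.8 and 906.0 CPM in neutrophils of libraries 1 to 6, against 0.0751 to 10.9 CPM in the other barcodes. Every library's neutrophils lay above the other barcodes of all libraries. Cxcr4, which holds granulocytes in the marrow and is known to return on aged neutrophils, was at 538.8 CPM in neutrophils and 13.8 CPM in the other barcodes. Il1r2, a decoy receptor that binds interleukin 1 without signalling, was at 359.2 CPM in neutrophils and 0.880 CPM in the other barcodes. Csf3r, the receptor for granulocyte colony-stimulating factor, was at 281.1 CPM in neutrophils, 19.3 CPM in the other barcodes and 34.1 CPM in microglia.

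Trem1, which amplifies inflammatory signals, was at 351.4 CPM in neutrophils and 0.422 CPM in the other barcodes. Clec7a, the receptor for fungal beta-glucan, was at 617.2, 530.8, 880.2, 450.5, 663.8 and 906.0 CPM in neutrophils of libraries 1 to 6, against 0.976, 2.07, 5.55, 112.7, 249.1 and 385.1 CPM in the other barcodes. The neutrophils were higher in each library, while the other barcodes differed widely between libraries. Lower in neutrophils was Csf1r, the growth factor receptor of macrophages (136.6 CPM, against 1148 CPM in the other barcodes), with a ratio of -2.98 that was -1.16 with no C1q limit on neutrophils. Fpr1 and Fpr2, receptors for bacterial formyl peptides that are typical of neutrophils, were found in 3 and 5 neutrophils. Of 16 measured adhesion genes 5 were higher and 5 lower, the lower ones including Itgam, the alpha chain of Mac-1 (46.9 CPM in neutrophils, 128.8 CPM in the other barcodes). Among the 5 higher adhesion genes, 3 had passed only through the neutrophils. Over all genes 10.7% were higher and 25.7% lower.

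Cytokine genes also went both ways. Of 14 measured cytokine genes 5 were higher in neutrophils and 5 lower, and 2 of the higher ones had passed only through the neutrophils. The shares over all genes were 10.7% and 25.7%. Il1b, interleukin 1 beta, was found in 91.7% of neutrophils and 13.8% of the other barcodes, and thinned to 500 UMIs in 74.6% and 3.58% in that order. Its level was 7457, 3848, 3551, 3166, 5099 and 7928 CPM in neutrophils of libraries 1 to 6, against 30.4, 35.8, 144.8, 85.9, 110.8 and 363.0 CPM in the other barcodes. Osm, oncostatin M of the interleukin 6 family, was at 925.7, 2344, 3086, 1351, 1599 and 1359 CPM in neutrophils, against 16.6 to 47.8 CPM in the other barcodes. Neither gene overlapped between the 2 sides in any library. Il1rn, the natural antagonist of the interleukin 1 receptor, was at 288.9 CPM in neutrophils and 3.97 CPM in the other barcodes. It is counted both here and in the cytokine receptor list.

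Tnf, tumour necrosis factor, was at 15.6 CPM in neutrophils and 148.2 CPM in the other barcodes, and its ratio of -2.63 was -0.85 with no C1q limit. Il6 had 0 UMIs in neutrophils, at least 1.87-fold below its 21.9 CPM in the other barcodes, and its ratio was -0.59 with no C1q limit. Of 9 measured chemokine genes 1 was higher and 5 lower, beside 10.7% and 25.7% over all genes. The higher one was Cxcl2, which draws neutrophils themselves. It was found in 43.2% of neutrophils, at 3137, 1504, 4917, 1171, 603.5 and 3398 CPM in libraries 1 to 6, against 63.2, 47.6, 497.1, 217.5, 394.3 and 1633 CPM in the other barcodes. Of the 73 cells that held it, 51 were in library 3. Its ratio was 2.61, but 1.68 if library 3 was left out and 3.42 if library 6 was. Lower were Ccl4 (-1.97, and -0.94 with no C1q limit), Ccl5, Cxcl16, Cxcl1 and Pf4, and Ccl3 was at 1179 CPM in neutrophils and 853.8 CPM in the other barcodes. Cxcl1, another attractant of neutrophils, had 2 UMIs in neutrophils (7.81 CPM, against 104.5 CPM in the other barcodes), and its ratio of -2.68 moved to -3.53 with library 4 left out and to -1.73 with library 6 left out. The ratio of Cxcl16, -2.33, was -3.004 without library 5.

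Interferon-induced genes were high in neutrophils of all libraries. Of 33 measured members 18 were higher and 2 lower, with a median ratio of 1.08, against -0.50 over all genes. Over all genes 10.7% were higher and 25.7% lower. Of the 33, 10 had passed only through the neutrophils, which fixes their direction, and 9 of these were among the 18 higher ones. The summed level of the list was 16970, 10170, 9095, 6526, 6729 and 4757 CPM in neutrophils of libraries 1 to 6, against 1373, 1309, 1104, 1913, 2353 and 2652 CPM in the other barcodes. Per cell it ran from 1.09 to 37.8 per 1000 UMIs with a median of 8.12, and library medians were 17.1, 7.77, 8.45, 8.28, 5.74 and 4.46. Library 1 was highest, with 11 cells. Ifit3, which restrains viral replication, was at 5349, 1990, 2256, 1532, 2173 and 1586 CPM in neutrophils, against 5.72 to 34.2 CPM in the other barcodes. Oas1a, a sensor of double-stranded RNA, was at 511.4 CPM in neutrophils and 9.93 CPM in the other barcodes. Irf7, a transcription factor of the interferon response, was at 370.9 CPM in neutrophils and 33.3 CPM in the other barcodes, with 0 UMIs in the 5 neutrophils of library 6.

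Ifit1bl, a relative of Ifit3, was at 1347 CPM in neutrophils and 0.860 CPM in the other barcodes. Ifitm1 was at 991.6 CPM in neutrophils and 151.5 CPM in the other barcodes, and its ratio of 2.63 was 1.76 without library 3. Members of the Ifit, Ifitm, Oas and Slfn families have close copies, and the sources used here do not say how reads were shared between copies. Mx1, a GTPase against viruses, had 0 UMIs in neutrophils, at least 4.48-fold below its 52.5 CPM in the other barcodes. Bst2, which tethers virus particles to the cell, was at 39.0 CPM in neutrophils and 172.2 CPM in the other barcodes. The list's higher sum did not extend to every member.

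**Figure D5:**
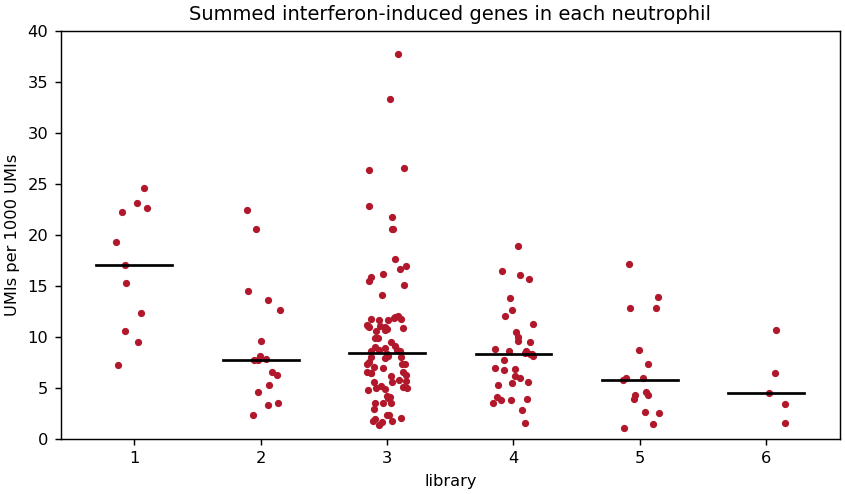
Summed interferon-induced genes in each neutrophil. The vertical axis gives their UMIs per 1000 UMIs of the cell, points are neutrophils and lines are medians, by library. Medians run from 4.46 in library 6 to 17.1 in library 1, and cells within library 3 spread from 1.35 to 37.8.

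Promoters of this list were searched for the interferon-stimulated response element, taken as GAAA, any 2 bases and GAAA again, on both strands of the 300-base window that RefSeq gives around each gene's start (GRCr8). The motif and the printed genes were chosen after the values had been seen. Of 43 list genes in the matrix 31 had a single window, and 19 of these held the motif, against 3.92% of 33469 windows of all genes. It was found in 8 of 13 windows of genes higher in neutrophils, 6 of 10 of genes between the thresholds, 1 of 2 of lower genes and 4 of 6 of genes under 20 CPM. The windows of 3 high genes and of Mx1 are printed 5′ to 3′ on the gene's strand, with matches in capitals. They lie at chr1:241527076-241527375 (Ifit3, plus strand), chr12:41330216-41330515 (Oas1a, plus strand), chr1:205799974-205800273 (Irf7, minus strand) and chr11:50294557-50294856 (Mx1, minus strand).
Ifit3: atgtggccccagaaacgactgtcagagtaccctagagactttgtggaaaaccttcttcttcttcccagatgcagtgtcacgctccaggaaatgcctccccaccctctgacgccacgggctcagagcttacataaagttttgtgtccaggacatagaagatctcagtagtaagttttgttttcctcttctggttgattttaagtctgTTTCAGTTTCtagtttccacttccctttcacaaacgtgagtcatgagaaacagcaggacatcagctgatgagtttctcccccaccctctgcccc
Oas1a: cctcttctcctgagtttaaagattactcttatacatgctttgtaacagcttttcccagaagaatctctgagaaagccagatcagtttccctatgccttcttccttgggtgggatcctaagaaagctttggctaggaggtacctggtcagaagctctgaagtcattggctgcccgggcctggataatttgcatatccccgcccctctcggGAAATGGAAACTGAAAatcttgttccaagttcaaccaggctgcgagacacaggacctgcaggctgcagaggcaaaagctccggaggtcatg
Irf7: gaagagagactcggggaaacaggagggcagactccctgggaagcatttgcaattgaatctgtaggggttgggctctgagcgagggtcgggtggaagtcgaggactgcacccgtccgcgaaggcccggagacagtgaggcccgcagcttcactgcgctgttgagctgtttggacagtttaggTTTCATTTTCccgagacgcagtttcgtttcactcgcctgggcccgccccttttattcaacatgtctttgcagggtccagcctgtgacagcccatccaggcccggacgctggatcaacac
Mx1: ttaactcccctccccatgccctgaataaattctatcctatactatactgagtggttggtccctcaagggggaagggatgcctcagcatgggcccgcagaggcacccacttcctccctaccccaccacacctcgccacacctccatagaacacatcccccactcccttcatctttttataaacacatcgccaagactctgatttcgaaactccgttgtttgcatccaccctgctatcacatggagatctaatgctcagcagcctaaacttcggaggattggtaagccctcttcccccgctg
Oas1a holds 2 overlapping matches, Ifit3 and Irf7 hold 1 each on the opposite strand, and these letters are not in the Mx1 window. Of the 20 leading genes 15 had a single window in the table, and among these the interferon motif, the C/EBP motif TTGCNNAA and the PU.1 motif GAGGAAGT were each found in 1 (Ifit3, Anxa1 and Scimp). Of all windows 10.6% held TTGCNNAA and 2.42% held GAGGAAGT. A match is a description of letters, not of binding.

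Of 25 measured transcription factors of granulocytes and of immediate early genes, 18 were higher and 2 lower, with a median of 1.58. The shares over all genes were 10.7% and 25.7%, and 3 of the 18 had passed only through the neutrophils. Cebpb, which drives emergency granulocyte formation, was at 720.0, 1813, 9500, 1171, 3289 and 3398 CPM in neutrophils of libraries 1 to 6, against 128.5 to 341.2 CPM in the other barcodes, and was highest in library 3. Nfe2 was at 148.4 CPM in neutrophils and 0.136 CPM in the other barcodes. Fos, Junb and Klf2, early response genes that dissociation of tissue can also induce, were at 11170, 5770 and 5384 CPM in neutrophils and at 2242, 1158 and 777.7 CPM in the other barcodes. The part of dissociation in these levels was not tested. Of 19 NF-kB subunits and feedback genes 6 were higher and 1 lower, and 4 of the 6 had passed only through the neutrophils. Sod2, a mitochondrial superoxide dismutase of that list, was at 1831 CPM in neutrophils and 134 CPM in the other barcodes. Irf8, a factor of the monocyte line, was at 3.90 CPM in neutrophils and 32.2 CPM in the other barcodes.

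Of 8 measured NADPH oxidase genes, whose enzyme makes superoxide, 4 were higher and 1 lower, and 1 of the 4 had passed only through the neutrophils. Ncf4, its p40phox subunit, was at 671.5 CPM in neutrophils and 49.8 CPM in the other barcodes. Hvcn1, the proton channel that supports the oxidase, had 0 UMIs, at least 2.96-fold below its 34.7 CPM in the other barcodes. Padi4, which citrullinates histones when nuclear traps form, was found in 21 neutrophils, at 101.5 CPM in neutrophils and 0.0646 CPM in the other barcodes. Padi4 belongs to a list of granulocyte nucleus and chromatin genes, of which 3 of 7 measured were higher and 1 lower, and it had passed only through the neutrophils. Of 11 lipid mediator genes 3 were higher and 5 lower, and 1 of the 3 had passed only through the neutrophils. Alox5ap, the partner of 5-lipoxygenase, was at 1308 CPM in neutrophils and 193.8 CPM in the other barcodes, and Pla2g4a, which frees arachidonic acid, had 0 UMIs, at least 7.60-fold below its 89.1 CPM in the other barcodes. Of 21 glycolysis and hypoxia genes 5 were higher and 1 lower, with a median of -0.27, and 3 of the 5 had passed only through the neutrophils. Slc16a3, a lactate exporter, was at 476.3 CPM in neutrophils and 14.2 CPM in the other barcodes, and its ratio of 4.33 was 3.72 without library 3. Of 27 respiratory chain genes 0 were higher and 2 lower, with a median of -0.39. Over all genes 10.7% were higher and 25.7% lower, with a median of -0.50. Neither the median of the glycolysis and hypoxia list nor that of the respiratory chain lay below that.

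Of 21 measured genes of cell death and survival 9 were higher and 2 lower, and 5 of the 9 had passed only through the neutrophils. Mcl1, the survival factor on which neutrophils depend, was at 1441 CPM in neutrophils and 161.3 CPM in the other barcodes. Of 17 targets of p53, a factor activated by DNA damage, 5 were higher and 3 lower, with a median of 0.53. The shares over all genes were 10.7% and 25.7%, with a median of -0.50. Among the 5 higher p53 targets, 2 had passed only through the neutrophils. Gadd45a, a stress gene of that list, was at 3086, 1990, 1204, 2832, 2565 and 1133 CPM in neutrophils of libraries 1 to 6, against 24.7 to 101.6 CPM in the other barcodes. Ccng1, another target, was at 23.4 CPM in neutrophils and 77.0 CPM in the other barcodes. Since libraries carry no group, these values say nothing on irradiation. Of 7 measured cell cycle genes 1 was higher, having passed only through the neutrophils, and 3 were lower. Mki67, a marker of dividing cells, was found in 1 neutrophil. Of 7 measured genes of an MHC class II list, which includes the cathepsin Ctss, 7 were lower. Their median was -3.27 (-3.08 with RT1-Ba, which had 0 UMIs, taken at 3 UMIs). With no C1q limit on neutrophils that median was -1.74.

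The 10 genes with the lowest ratios, among those found in at least 25% of the other barcodes, included RT1-DMa, Tmem176b, Tmem119, Gmpr, Spint1, Mef2c, Trem2 and Rgs1. Each of the 10 was lower in neutrophils in 6 of 6 libraries. Most are genes of microglia and macrophages, which made up much of the other barcodes. RT1-DMa, which helps load MHC class II molecules, was at 78.1 CPM in neutrophils and 1236 CPM in the other barcodes. Trem2, a lipid receptor of microglia, was at 58.6 CPM in neutrophils and 791.1 CPM in the other barcodes. These ratios rest on the C1q limit that chose the cells, since without it RT1-DMa was at -1.29 in place of -3.82, Trem2 at -1.11 in place of -3.55, Tmem119 at -1.29 in place of -3.73 and Spint1 at -1.19 in place of -3.64. Tmem176b was at -1.31 in place of -3.78, Gmpr at -1.31 in place of -3.72, Mef2c at -1.38 in place of -3.57 and Rgs1 at -1.99 in place of -3.52.

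Neutrophils were also set against other leukocytes. Macrophages with Lyz2 (5890 barcodes), microglia (18033) and T cells (550) were set by simple rules on genes that include C1q, Lyz2, Clec7a, microglial genes and Cd3e. Levels of those genes are therefore not compared with these sets by name. Lyz2, Clec7a and the microglial genes were not all taken out of the counts that follow. For such genes the direction was set in part by the rules. Genes higher in neutrophils numbered 975 of 6517 over these macrophages (15.0%), 1116 of 6658 over microglia (16.8%) and 851 of 6776 over T cells (12.6%). Genes lower in neutrophils numbered 1477 (22.7%), 1587 (23.8%) and 1513 (22.3%) in the same order. The astrocyte markers described below were among the higher ones, 10 of 14 over the macrophages and 12 of 14 over microglia, and their part in these counts was not tested. Libraries 4, 5 and 6 held 906, 2632 and 2322 of the macrophages, and libraries 1, 2 and 3 held 2, 8 and 20, so pooled levels mix libraries unequally. Il1b was at 4033 CPM in neutrophils, 434.5 CPM in the macrophages, 87.3 CPM in microglia and 6.33 CPM in T cells. Within libraries 4, 5 and 6 Il1b was at 3166, 5099 and 7928 CPM in neutrophils and 310.1, 279.0 and 602.6 CPM in the macrophages, higher in neutrophils each time.

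Cxcl2 did not differ one way. Within library 4 it was at 1171 CPM in neutrophils (Poisson interval 943.1 to 1438) and 811.4 CPM in the macrophages. Within library 5 it was at 603.5 CPM in neutrophils (368.6 to 932.0) and 1117 CPM in the macrophages, and within library 6 at 3398 CPM in neutrophils (1902 to 5604) and 3099 CPM in the macrophages. The pooled values, 2760 CPM in neutrophils and 2031 CPM in the macrophages, rest on library 3 for the neutrophils. Summed interferon-induced genes were at 6526, 6729 and 4757 CPM in neutrophils of libraries 4, 5 and 6, against 4425, 4238 and 3984 CPM in the macrophages, and the neutrophil interval in library 6 (2944 to 7271 CPM) held the macrophage value. Member by member, 13 of 37 were higher and 6 lower in neutrophils than in the macrophages, with a median ratio of 0.35. Over microglia 20 of 32 were higher and 2 lower.

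Transcripts of genes used as markers of other cells were present among the neutrophils, and their origin was not tested. All 14 astrocyte markers were detected, with a summed level of 6120 to 30090 CPM in neutrophils of the 6 libraries, against 21650 to 45230 CPM in the other barcodes. From library 1 to 6 the neutrophils held 28.3, 24.9, 39.8, 66.5, 63.4 and 60.1% of the other barcodes' level. These sums give deep cells more weight. The cell with 13129 UMIs in library 4 held 75.2 astrocyte UMIs per 1000, and that with 6447 UMIs in library 5 held 50.1. Per-cell medians in libraries 1 to 6 were 6.44, 9.49, 6.13, 16.3, 11.8 and 17.8 per 1000. Apoe, which astrocytes and microglia express strongly, was found in 98.8% of neutrophils and 99.97% of the other barcodes (9135 and 20150 CPM). Microglial markers summed to 679.5 to 1415 CPM in neutrophils and 3276 to 14430 CPM in the other barcodes. Of 14 T or NK cell markers 11 had 0 UMIs, and their sum was at most 20.2 CPM in the neutrophils of a library, against 138.2 to 459.9 CPM in the other barcodes. Of 9 B cell markers 7 had 0 UMIs, of 11 basophil, mast cell or eosinophil markers 9, of 8 erythroid markers 6, and of 8 platelet markers 5. Macrophage markers summed to 1035 CPM in neutrophils and 732 CPM in the other barcodes, with 2 of 8 measured higher and 5 lower. Clec7a, described above, gave 671.5 CPM of the neutrophils' sum. Monocyte markers summed to 808 CPM in neutrophils and 338 CPM in the other barcodes, with 3 of 8 higher and 2 lower. Of the 3 higher ones, 2 had passed the limit on CPM only through the neutrophils, among them Fn1, described below. Beside both lists stand the shares over all genes, 10.7% higher and 25.7% lower. Nr4a1 alone gave 449.0 CPM of the monocyte sum in neutrophils, and the per-cell median of that list was 0. In libraries 1 to 6 the sum was 55.3, 153.7, 317.0, 124.0, 32.6 and 73.7% of the other barcodes' level. The list's median ratio of 0.53 was -1.48 with a mitochondrial limit of 10%. Oligodendrocyte markers summed to 437 CPM in neutrophils and 1263 CPM in the other barcodes, neuronal ones to 15.6 and 27.8 CPM, and endothelial or mural ones to 39.0 and 102 CPM in the same order. The part of such transcripts in genes that the other barcodes also hold at high levels was not tested.

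Single cells decided the values of some genes, and the deepest cells together moved many calls. Of the neutrophils 8 had over 3000 UMIs, and the deepest, with 13129 UMIs in library 4, held 491 Apoe UMIs beside 3 of G0s2. All 22 Fcnb UMIs lay in 1 cell of library 3, which also held 19 Fn1 and 16 S100a4 UMIs, both genes of monocytes, and no G0s2. Without library 3 the Fcnb ratio of 3.02 was -0.18 and the Fn1 ratio of 2.42 was -0.55. The ratio of Hp, haptoglobin, was 1.54, and 0.46 without library 4. Without the 8 deepest cells 831 of 7133 genes were higher in neutrophils and 2706 lower, against 762 and 1832 of 7137 with them. That setting was added after the data had been seen.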

How the data were processed

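The deposited matrix holds raw UMI counts per gene and barcode made by the authors with Cell Ranger 7.0.0, per the file headers. Per the submitters' processing notes the build is mm10, a mouse build, while gene identifiers are rat; the annotation is not given in the sources used here. The matrix has 58078 barcodes of 6 libraries, 30452 genes and 329205505 UMIs (46853113 to 62094407 per library); 0 libraries could be tied to a labelled sample, so no fit of irradiated against control was made.

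Counts were summed over cells, scaled to CPM and compared as log2 ratios with 10 CPM added. Identifiers that share a symbol were summed for a named gene's values, and counted singly in counts over lists. Intervals are exact binomial or Poisson (95%) and cover counting error. Doublets were not removed; Scrublet within each library (scanpy 1.11.5) is an alternative. RNA free in droplets was neither estimated nor removed. The members and all 34 gene lists were chosen with earlier results of these data known. Named genes are the 20 highest and 10 lowest ratios among genes found in at least 25% of cells of the higher side, and the 4 highest members of each list, with receptor, granule and cytokine genes behind a count; S100a8, S100a9, Retnlg and G0s2 were named in any case. Genes shown in the Retnlg split, Oas1a, Irf7, Bst2, Mx1, Cebpb, Nfe2, Irf8, Hvcn1, Ccng1, Pla2g4a, Mki67, RT1-Ba, Itgam and the single-cell examples were chosen after their values were seen. Some genes that the rule names are not reported here. Promoters come from RefSeq; 16975 of 21201 symbols matched its gene table. The ratio step was tested on simulated data. Tools were matplotlib 3.10.9, pandas 2.3.3, SciPy 1.17.1 and NumPy 2.4.6 under Python 3.11.15.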

Additional observations from a re-analysis of the deposited data

How the results depend on the processing

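No paired analysis was possible because barcodes carry no replicate of a labelled sample, and the irradiated-minus-control fit with its block was not run. The number of neutrophils was 111 with C1q at most 1 per 1000 UMIs, and 85 to 164 with 1 library left out, lowest without library 3. The neutrophil share of kept barcodes was 0.264% with at least 1000 UMIs, 0.470% with a mitochondrial limit of 10%, 0.295% with no such limit, 0.228% with the stricter C1q limit, and 0.223 to 0.384% with 1 library left out. Scrublet removed 3311 barcodes and 7 neutrophils. Over all alternatives 648 to 892 genes were higher in neutrophils and 1271 to 2706 lower, and with 1 library left out 754 to 838 and 1779 to 2355. The median ratio over all genes was -0.50, and -0.63 with each barcode weighted equally. Of 122 called named genes 119 kept their sign under every alternative run, and of 18 lists past the same limits 17 did, but 87 of the genes and 8 of the lists stayed past those limits under every one. Fcnb (-0.30, -0.25 and -0.24) and Fn1 (-0.72, -0.66 and -0.65) were below 0 under a 10% mitochondrial limit, under an S100 minimum of 20 per 1000 and without cells over 3000 UMIs. With 1 library left out, Fcnb was at -0.18 to 3.48, Fn1 at -0.55 to 2.86 (lowest without library 3 for both) and Ceacam1 at -0.0381 to 1.79 (lowest without library 4). The primary granule median was -0.0005 with no filter on low genes, since most members have 0 UMIs. Leaving out 1 library moved 23 of the 122 genes by over 1.5 times, 14 of them without library 3. 2 alternatives, the weighting of the other barcodes by library and the removal of deep cells, were chosen after seeing the data. Depth limits most genes: in library 6, with 4415 neutrophil UMIs, 1 UMI is 226.5 CPM.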

Other observations

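Some identifiers without a gene name also had high ratios in neutrophils. ENSRNOG00000030021 was found in 88.8% of neutrophils and 24.1% of the other barcodes, at 4435 CPM in neutrophils and 112.9 CPM in the other barcodes. ENSRNOG00000070861 was found in 29.0% of neutrophils and 0.0330% of the other barcodes, at 1726 CPM in neutrophils and 0.411 CPM in the other barcodes. None of the 7092 identifiers without a symbol matched the RefSeq gene table, and both were picked after their values were seen.

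The 27 barcodes that passed the S100 threshold and exceeded the C1q limit were spread over libraries 1 to 6 as 2, 9, 12, 1, 2 and 1.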
